A study of Arabidopsis thaliana with 66 samples.

Results

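Roots of the Arabidopsis thaliana line N8508 were compared with and without thorium while nano-hydroxyapatite, a particulate calcium phosphate, was present in their medium. The comparison holds 6 of the 66 libraries of the series, 3 labelled nanoP+Th and 3 labelled nanoP, and they were chosen by genotype and treatment alone, not by any measured value. The series has 22 groups of 3 root libraries, taken after 14 days of exposure, from wild-type Col-0 and from 3 mutants known here by stock number, N8508, N8507 and N9416. The labels do not name the gene mutated in N8508. All 6 libraries came from N8508 roots on phosphate-free medium to which the particles had been added. By their labels the groups differed in thorium only, and the hour of harvest is not given. The other N8508 groups, also of 3 libraries each, were untreated control plants (mock), plants on phosphate-free medium (-P) and plants on that medium with thorium (-P+Th). The doses of thorium and particles are not given in the sources used here. Whether replicates were grown on separate plates or from separate plants is not stated, and the p-values therefore reflect library-to-library spread only, which may be technical.

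Plants respond to phosphate shortage through the transcription factor PHR1, which binds the P1BS sequence and raises phosphate transporters, phosphatases, lipid-replacing enzymes and non-coding RNAs such as IPS1. SPX proteins hold PHR1 back when phosphate is sufficient, and PHO1 loads phosphate into the xylem. Heat shock factors raise chaperones of the small heat shock, HSP70, HSP90 and HSP100 families when proteins unfold, and they also respond to metals. Glutathione transferases and glycosyltransferases conjugate toxic compounds, and group VII ethylene response factors raise fermentation genes when oxygen is short. Thorium is an actinide metal with no known role in plants and forms poorly soluble phosphates.

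Assigned reads ran from 11.3 M to 12.78 M in the 6 libraries, and 21176 to 21592 genes had a read in each. Pairs of nanoP libraries correlated at 0.9903 to 0.9913 across genes (log2 CPM, where CPM is a library's reads for a gene scaled to a common total), pairs of nanoP+Th libraries at 0.9703 to 0.9842, and pairs across the groups at 0.9584 to 0.9724. The nanoP+Th libraries thus lay farther from each other than the nanoP libraries did. All 16 root cell type markers had reads in both groups, and their sum was 610.2 to 695.3 CPM with nanoP and 633.8 to 827.0 CPM with nanoP+Th. None of the 16 rose, and SHR, a regulator of the endodermis, fell (log2 fold change -0.41, SE 0.08, adjusted p = 0.00354). Of 15 green tissue markers, 5 had no read with nanoP (RBCS2B, RBCS3B, LHCB1.1, LHCB1.2 and CA1). The green markers summed to 32.0, 39.5 and 36.0 CPM with nanoP and to 54.5, 53.7 and 41.2 CPM with nanoP+Th, without overlap. Of 10 tested green markers 2 rose and 0 fell (9.22% and 7.18% of all genes), with a median log2 fold change of 0.97. In a fit of all 66 libraries 0 of 11 rose or fell. The part of green tissue in the results was not tested. In bulk roots, fewer cells of a type and less RNA per cell cannot be told apart.

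With thorium, heat shock, phosphate starvation, hypoxia, detoxification and suberin genes rose in roots supplied with nano-hydroxyapatite. Single transporters fell, among them SULTR1;1 (sulfate), NRT2.1 (nitrate), SKOR (potassium) and HMA2 (zinc). The sulfur list had 3 rises and 3 falls of 22, and the zinc and metal list 1 rise and 2 falls of 26. With edgeR's quasi-likelihood test and a threshold of 0.05 on the adjusted p, 3265 of 19908 genes passed (16.4%). Of these, 1835 rose (9.22% of genes tested) and 1430 fell (7.18%). The median log2 fold change over all genes tested was 0.02. The rises were larger than the falls: 708 genes rose and 209 fell by more than 1 on the log2 scale, and 105 rose and 11 fell by more than 3. The groups did not overlap for 6944 genes (34.9%), so lack of overlap in a named gene is no support by itself. The count was 1954 without nanoP replicate 2 and 1737 without nanoP replicate 3.

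**Figure D1:**
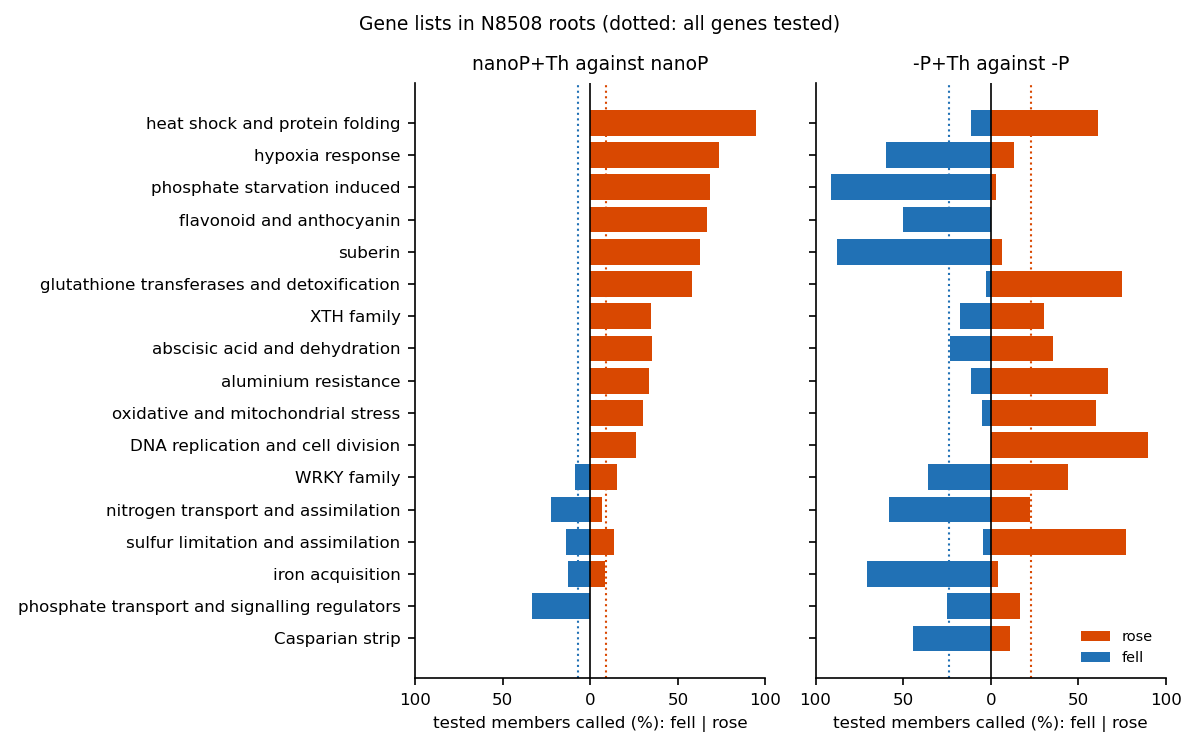
Share of tested members of gene lists that rose (right, orange) or fell (left, blue) with thorium in N8508 roots, in percent; the left panel compares nanoP+Th with nanoP and the right panel -P+Th with -P. Dotted lines mark the shares over all genes tested, which were 9.22% and 7.18% with nanoP. The heat shock bar reaches 94.4% with nanoP, and the phosphate starvation bar points right with nanoP (68.6%) and left without phosphate.

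Heat shock and protein folding genes rose the most among the lists. All lists were chosen with earlier results of these data known, so their shares are descriptive and no independent support. Of 18 list members, all of which passed the filter on low counts, 17 rose and 0 fell (94.4%, against 9.22% of all genes), with a median log2 fold change of 3.01. The summed level of the list was 226.0, 223.5 and 223.2 CPM with nanoP and 1503.3, 1027.0 and 646.0 CPM with nanoP+Th. Every treated library stood above every untreated one, and replicate 1 held the highest sum. HSP17.6II, a cytosolic class II small heat shock protein that binds unfolding proteins, had no read in the 3 nanoP libraries and 54.0, 17.1 and 15.2 CPM with nanoP+Th, at least 377.4-fold higher against a floor of 3 reads over the nanoP group (adjusted p = 0.000483). ATHSP22.0 also had no read with nanoP and reached 30.7, 9.53 and 7.56 CPM, at least 209.6-fold higher (adjusted p = 0.000517). The chloroplast protein HSP21 went from no read to 10.6, 4.46 and 5.6 CPM, at least 89.5-fold higher (adjusted p = 0.0115). HSP21 averaged 1.09 CPM on mock and 1.4 CPM on -P+Th. It passed the filter on low counts only through nanoP+Th, so that a difference was built in, and it is among the 17 that rose. HSP23.6, a mitochondrial small heat shock protein, had 1 read in the nanoP group, and its ratio was 598.5 with a 95% counting interval of 107.4 to 23640.4. HSP17.6A rose from 0.457, 0.162 and 0 CPM to 90.6, 62.7 and 40.4 CPM (log2 fold change 8.20, SE 0.88, adjusted p = 4.2e-05), or 9.47 without nanoP replicate 1. HSP17.4 rose from 0.229, 0 and 0.156 CPM to 63.7, 35.5 and 22.8 CPM (log2 fold change 8.17, SE 1.04, adjusted p = 0.000126), or 8.80 without nanoP replicate 1.

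The large chaperones were present without thorium and rose by smaller factors. HSP101, the disaggregase of the HSP100 family, read 24.2, 23.5 and 20.7 CPM with nanoP and 199.9, 147.9 and 81.1 CPM with nanoP+Th (log2 fold change 2.65, SE 0.33, adjusted p = 0.000111). The stress-induced cytosolic HSP90.1 went from 23.1, 22.5 and 24.2 CPM to 283.1, 178.1 and 95.6 CPM (3.00, SE 0.38, adjusted p = 0.000114). HSP70 went from 57.4, 51.0 and 62.3 CPM to 457.3, 318.0 and 169.4 CPM (2.47, SE 0.32, adjusted p = 0.000139). In each of these genes the lowest treated library, replicate 3, lay above the highest untreated library. The heat shock factor HSFA2, which sustains the response, rose from 1.68, 1.86 and 1.09 CPM to 25.8, 14.6 and 10.7 CPM (3.46, SE 0.47, adjusted p = 0.000211). ROF2, an immunophilin that binds HSP90, rose by 2.89 (SE 0.32), the co-activator MBF1C by 1.82 (SE 0.20) and HSA32, which prolongs acquired heat tolerance, by 1.95 (SE 0.32). BIP3, an inducible chaperone of the endoplasmic reticulum, rose from 0.838, 0.485 and 0.469 CPM to 4.84, 6.1 and 3.91 CPM (3.02, SE 0.41, adjusted p = 0.000227). The heat shock factor HSFA7A stayed under the threshold at -0.16 (SE 0.15, adjusted p = 0.501). The summed list read 202.7 to 240.1 CPM on -P, close to nanoP, and 520.3 to 995.9 CPM on mock, where it overlapped nanoP+Th.

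**Figure D2:**
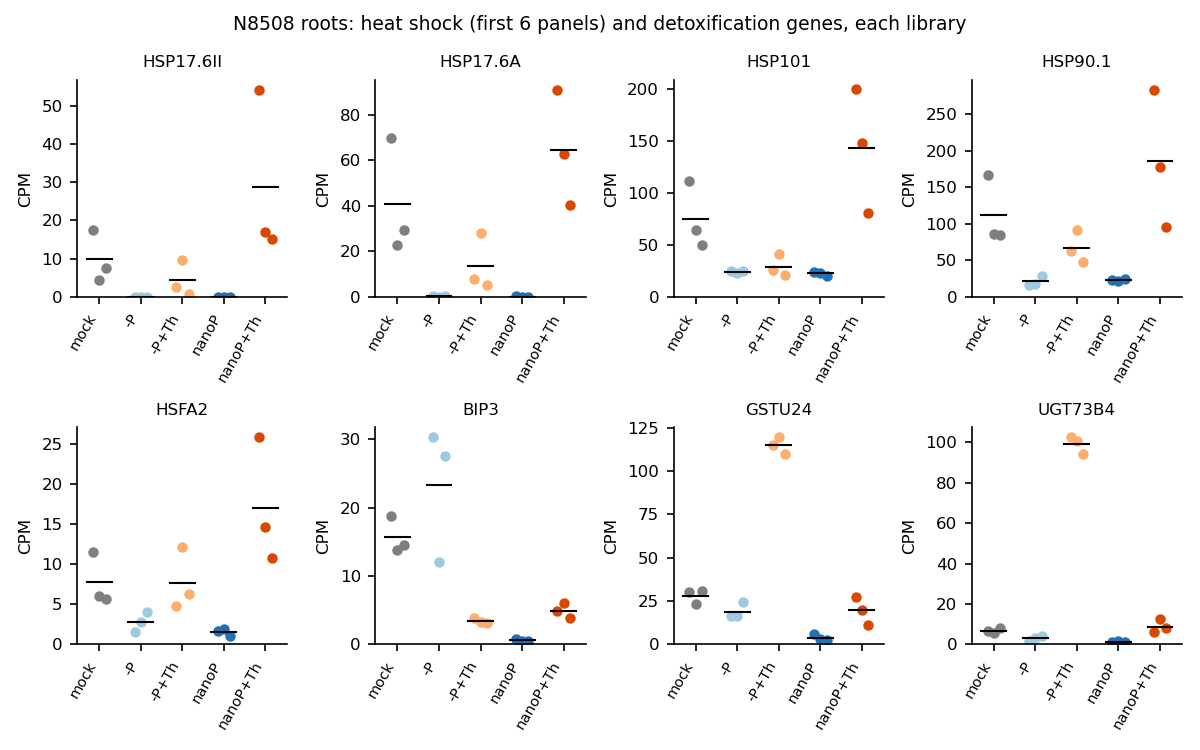
Levels in CPM (vertical axes, each starting at 0) of 6 heat shock and 2 detoxification genes in the 15 N8508 libraries; points are libraries and black lines are means of 3. In every panel the nanoP+Th points lie above the nanoP points, HSP17.6II has 0 CPM with nanoP, and UGT73B4 reaches its highest mean, 99.1 CPM, on -P+Th.

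The heat shock element core was looked for in promoters as GAANNTTC, on both strands of the 250 bases before each RefSeq start (TAIR10.1). It was present in 2526 of 26644 promoters (9.48%), in 4 of the 18 list members (22.2%) and in 3 of the 17 that rose. HSP21 and HSP17.4 are shown because both were silent or nearly so with nanoP and hold the core, which is in capitals. HSP21 lies at chr4:13819972-13820221 on the minus strand, with the match starting 100 bases before the start. HSP17.4 lies at chr3:16984868-16985117 on the minus strand, with matches 99 and 18 bases before it. The windows of HSP17.6II, ATHSP22.0, HSP23.6 and HSP17.6A hold no match to these letters. Neither printed window overlaps another annotated gene.
HSP21: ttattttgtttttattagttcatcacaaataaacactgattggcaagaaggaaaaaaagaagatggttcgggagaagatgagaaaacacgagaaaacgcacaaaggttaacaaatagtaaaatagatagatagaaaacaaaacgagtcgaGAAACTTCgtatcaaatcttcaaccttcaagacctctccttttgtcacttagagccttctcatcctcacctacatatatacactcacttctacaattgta
HSP17.4: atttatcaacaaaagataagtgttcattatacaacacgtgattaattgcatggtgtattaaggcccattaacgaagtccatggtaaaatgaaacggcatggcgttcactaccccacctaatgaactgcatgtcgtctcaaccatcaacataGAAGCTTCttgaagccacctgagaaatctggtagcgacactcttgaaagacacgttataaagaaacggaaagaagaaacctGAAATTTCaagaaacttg

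Genes induced by phosphate starvation rose with thorium although nano-hydroxyapatite was present. Of 36 list members 35 passed the filter on low counts, 24 rose and 0 fell (68.6% of those tested), and the median log2 fold change was 0.88. IPS1, a non-coding RNA that sequesters miR399, read 205.6, 201.6 and 207.3 CPM with nanoP and 418.2, 523.2 and 886.5 CPM with nanoP+Th (log2 fold change 1.57, SE 0.26, adjusted p = 0.000907). Its relative AT4 rose by 1.13 (SE 0.22, adjusted p = 0.00293, or 0.0552 in a fit of all 66 libraries). SPX3, an inhibitor of PHR1, went from 24.2, 25.6 and 31.7 CPM to 65.3, 134.6 and 159.7 CPM (2.14, SE 0.27, adjusted p = 0.000127). SPX1 rose less (0.77, SE 0.18, adjusted p = 0.00877) and did not pass in the fit of all 66 libraries (adjusted p = 0.0768). In these genes the treated and untreated libraries did not overlap (34.9% of all genes tested did not), and treated replicate 1 was the lowest of its group.

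Phosphatases and lipid remodelling enzymes followed the same direction. PECP1, which removes phosphate from phosphoethanolamine and phosphocholine, rose from 26.5, 24.3 and 32.7 CPM to 94.9, 230.2 and 305.1 CPM (2.92, SE 0.34, adjusted p = 7.54e-05). Its relative PS2 rose from 213.3, 265.2 and 274.6 CPM to 578.6, 1088.7 and 1419.0 CPM (2.03, SE 0.25, adjusted p = 8.83e-05). The purple acid phosphatase PAP24 went from 2.67, 2.43 and 2.74 CPM to 12.2, 24.6 and 27.6 CPM (3.03, SE 0.33, adjusted p = 4.84e-05). PAP25 rose from 0.152, 0.728 and 0 CPM to 8.1, 3.95 and 6.84 CPM (4.40, SE 0.76, adjusted p = 0.00143), or by 6.16 without nanoP replicate 2. The phospholipase NPC4 rose by 1.86 (SE 0.22), the sulfolipid synthase SQD2 by 1.57 (SE 0.22), and the galactolipid synthases MGD2 and MGD3 by 1.40 (SE 0.19) and 1.41 (SE 0.24). All of these lipid enzymes replace or break down phospholipids when phosphate is short.

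Transporters of the PHT1 family were divided. The high-affinity transporter PHT1;4 read 38.1, 31.8 and 39.8 CPM with nanoP and 79.3, 101.9 and 109.1 CPM with nanoP+Th (1.40, SE 0.16, adjusted p = 5.21e-05). The main root transporter PHT1;1 did not pass (-0.30, SE 0.23, adjusted p = 0.400). Neither did PHT1;2, at -0.32 (SE 0.25, adjusted p = 0.418), nor PHT1;3, at 0.04 (SE 0.24, adjusted p = 0.937). These 3 genes are near-identical copies that share reads, so their separate values are uncertain. PHT1;1 varied among treated libraries, with 776.1, 853.6 and 405.1 CPM against 795.4, 759.6 and 957.4 CPM with nanoP.

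Among 12 phosphate transport and signalling regulators 0 rose and 4 fell (33.3%, against 7.18% of all genes), with a median of -0.30. PHO1, the xylem loader, fell from 1696.7, 1798.3 and 1880.2 CPM to 1178.1, 1170.6 and 991.1 CPM (-0.69, SE 0.13, adjusted p = 0.00327). PHO2, a ubiquitin-conjugating enzyme that removes PHO1 and PHT1 proteins, fell from 537.7, 561.7 and 592.9 CPM to 361.4, 445.4 and 385.5 CPM (-0.51, SE 0.09, adjusted p = 0.00184), but its adjusted p was 0.370 in the fit of all 66 libraries. Both genes had lower values in every treated library than in any untreated one. AT1G63010, annotated as a major facilitator with an SPX domain, fell by 0.47 (adjusted p = 0.0204), which did not hold without nanoP replicate 2 (0.0515) or 3 (0.0857) or nanoP+Th replicate 3 (0.068). The fourth, NLA, a ubiquitin ligase for PHT1 proteins, fell by 0.37 (adjusted p = 0.0401), a call that 4 of the 6 single-library omissions ended: nanoP+Th replicate 1 (0.138) or 3 (0.0623) and nanoP replicate 2 (0.13) or 3 (0.128). The list had 2 falls in the fit of all 66 libraries and without nanoP replicate 2 or 3. PHR1 itself was at -0.03.

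**Figure D3:**
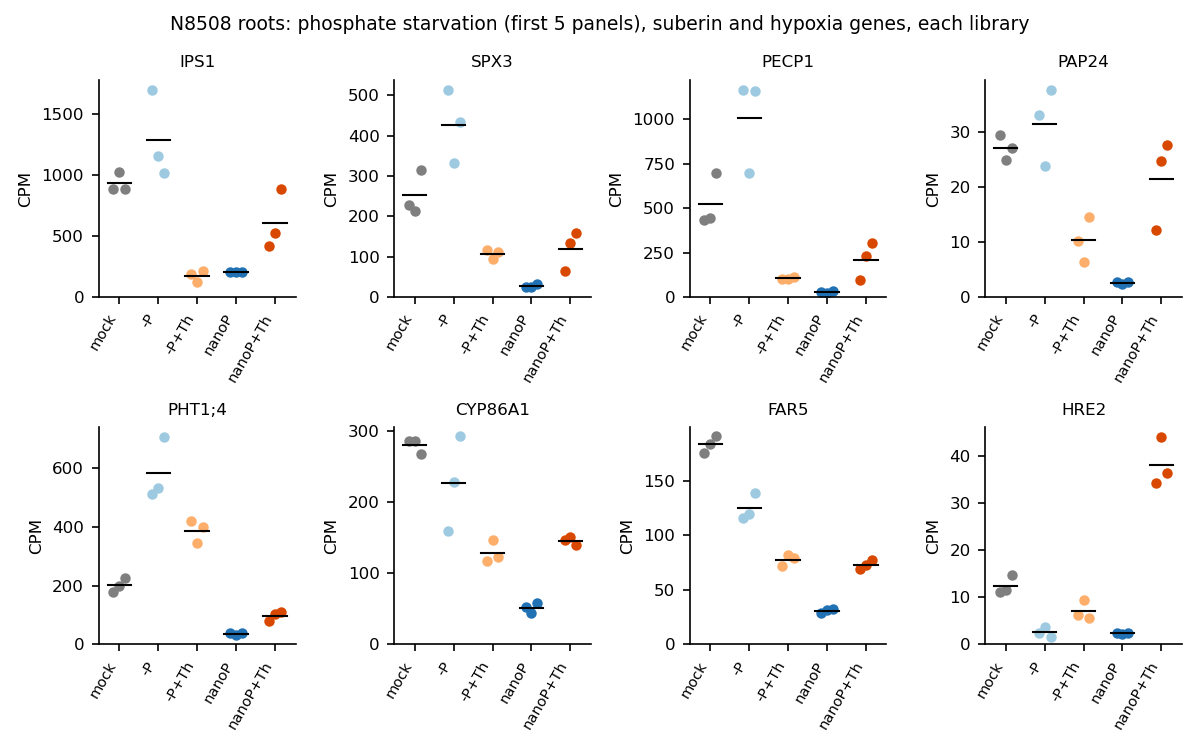
Levels in CPM (vertical axes, each starting at 0) of 5 phosphate starvation genes, 2 suberin genes and HRE2 in the 15 N8508 libraries; points are libraries and black lines are means of 3. The nanoP+Th points of IPS1, SPX3, PECP1 and PHT1;4 lie between those of nanoP and -P, those of PAP24 overlap -P, and PHT1;4 falls from a mean of 584.2 CPM on -P to 387.8 CPM on -P+Th. HRE2 has its highest points, 34.3 to 44.0 CPM, with nanoP+Th.

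The P1BS sequence was looked for as GNATATNC, on both strands of the same 250-base windows, where it was present in 1452 of 26644 promoters (5.45%). It was present in 13 of the 36 phosphate starvation list members (36.1%) and in 11 of the 24 that rose (45.8%). SPX3, PAP24 and PS2 are shown as genes that rose by over 2 on the log2 scale and hold a match, which is in capitals. SPX3 lies at chr2:18606160-18606409 on the plus strand with matches starting 213 and 90 bases before the start, PAP24 at chr4:12814457-12814706 on the minus strand with a match at 153, and PS2 at chr1:27466349-27466598 on the minus strand with a match at 217. No match to these letters was in the windows of IPS1, PECP1, SPX1 and PHT1;4. None of the printed windows overlaps another annotated gene.
SPX3: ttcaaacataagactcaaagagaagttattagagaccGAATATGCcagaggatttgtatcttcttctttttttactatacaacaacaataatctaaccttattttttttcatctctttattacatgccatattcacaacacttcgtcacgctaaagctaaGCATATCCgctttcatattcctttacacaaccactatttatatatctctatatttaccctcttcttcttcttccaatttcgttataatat
PAP24: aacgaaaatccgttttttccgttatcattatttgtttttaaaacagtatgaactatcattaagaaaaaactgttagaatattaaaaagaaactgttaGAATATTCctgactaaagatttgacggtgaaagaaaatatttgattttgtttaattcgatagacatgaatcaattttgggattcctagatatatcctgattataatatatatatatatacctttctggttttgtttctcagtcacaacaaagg
PS2: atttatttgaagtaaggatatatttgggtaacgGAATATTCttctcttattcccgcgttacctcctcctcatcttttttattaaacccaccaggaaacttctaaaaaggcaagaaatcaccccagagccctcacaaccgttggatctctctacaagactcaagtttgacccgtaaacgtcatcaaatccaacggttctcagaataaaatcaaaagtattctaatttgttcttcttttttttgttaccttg

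Suberin genes, which build the hydrophobic layer of the endodermis, rose with thorium. Of 16 tested members 10 rose and 0 fell (62.5%), with a median of 0.70, and 7 rose without nanoP+Th replicate 1 or without nanoP replicate 2. CYP86A1, the fatty acid hydroxylase of root suberin, rose from 52.0, 44.4 and 58.1 CPM to 146.4, 151.5 and 139.4 CPM (1.5, SE 0.17, adjusted p = 6.1e-05). FAR5, a fatty acyl reductase that makes suberin alcohols, rose from 28.4, 31.8 and 32.8 CPM to 69.0, 73.0 and 77.6 CPM (1.24, SE 0.09, adjusted p = 4.51e-06). The treated replicates of both genes were tight and more than 2-fold above the untreated mean. The exporter ABCG2 rose by 1.00 (SE 0.14), FAR4 by 0.94 (SE 0.17), the elongase KCS2 by 0.90 (SE 0.11) and the regulator MYB93 by 0.85 (SE 0.13). Genes of the Casparian strip, the other endodermal barrier, gave 0 calls among 9 tested members in edgeR (median 0.21), with 0 at an unadjusted p under 0.05 and 0 in DESeq2.

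Flavonoid genes were near silence with nanoP. Of 12 members 6 passed the filter on low counts and 4 rose, all at under 5 CPM except in 1 library. CHS, the entry enzyme of the pathway, had no read in the nanoP libraries and 2.46, 4.21 and 6.13 CPM with nanoP+Th (log2 fold change of at least 5.74 against a floor of 3 reads over the nanoP group, adjusted p = 0.000514). It read a mean of 39.4 CPM on -P and 2.05 CPM on mock.

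Genes of the hypoxia response rose. Of 15 tested members 11 rose and 0 fell (73.3%), with a median of 1.19, and their summed level was 3493.7, 5255.0 and 5814.9 CPM with nanoP and 11218.3, 13711.4 and 9775.4 CPM with nanoP+Th. HRE2, an ethylene response factor of group VII, rose from 2.51, 2.26 and 2.35 CPM to 34.3, 44.0 and 36.3 CPM (4.00, SE 0.24, adjusted p = 9.33e-07). ADH1, the alcohol dehydrogenase of fermentation, rose from 1144.2, 1433.2 and 1564.0 CPM to 4545.9, 4923.2 and 2910.8 CPM (1.58, SE 0.33, adjusted p = 0.00496). PDC1, the pyruvate decarboxylase before it, rose from 209.3, 541.4 and 611.7 CPM to 1332.0, 1750.0 and 1504.3 CPM (1.75, SE 0.31, adjusted p = 0.00157). In PDC1 and in the list's sum, nanoP replicate 1 lay well under the other two. Haemoglobin HB1, which scavenges nitric oxide, rose by 1.58 (SE 0.16, adjusted p = 2.5e-05), the lactic acid channel NIP2;1 by 2.15 (SE 0.40, adjusted p = 0.00226) and the sucrose synthase SUS4 by 1.19 (SE 0.19, adjusted p = 0.000698). Against mock, 11 of 15 members were higher with nanoP+Th (3.5% of all genes were) and 0 were lower, with a median of 1.1. HRE2 averaged 12.5 CPM on mock and 2.57 CPM on -P.

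Detoxification genes rose in 21 of 36 tested members (58.3%) and fell in 0, with a median of 1.11. The count was 13 in the fit of all 66 libraries. GSTU24, a tau class glutathione transferase, rose from 5.71, 3.32 and 2.74 CPM to 27.6, 19.8 and 11.3 CPM (2.32, SE 0.31, adjusted p = 0.000201). UGT73B4, a glycosyltransferase that acts on xenobiotics, rose from 1.3, 1.46 and 1.09 CPM to 5.87, 12.3 and 8.09 CPM (2.76, SE 0.32, adjusted p = 6.73e-05). GSTF6 went from 46.0, 17.5 and 26.1 CPM to 146.0, 95.5 and 82.4 CPM (1.85, SE 0.32, adjusted p = 0.00143). Treated and untreated libraries of these genes did not overlap, which held for 34.9% of all genes tested. OPR2, an oxophytodienoate reductase, rose by 1.38 (SE 0.14) and GSTU8 by 1.67 (SE 0.24). Oxidative and mitochondrial stress genes rose in 6 of 20 tested members and fell in 0 (30.0%, median 0.62). The cytosolic ascorbate peroxidase APX1 rose from 470.8, 408.7 and 410.1 CPM to 898.6, 655.2 and 655.3 CPM (0.78, SE 0.16, adjusted p = 0.00466), and the alternative oxidase AOX1A rose by 1.06 (SE 0.22, adjusted p = 0.00526). ALMT1, the malate channel of aluminium resistance, was at 0.152, 0.0809 and 0.0782 CPM with nanoP and at 2.54, 0.859 and 0.533 CPM with nanoP+Th (3.55, SE 0.72, adjusted p = 0.00423, or 2.62 without nanoP+Th replicate 1). Its mean on -P+Th was 340.2 CPM.

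Metal homeostasis lists held few calls, in both directions. Over all genes tested 9.22% rose and 7.18% fell. Of 24 iron acquisition genes tested 2 rose (8.33%) and 3 fell (12.5%), with a median of 0.15, and of 7 iron storage genes 0 passed in edgeR, 1 had an unadjusted p under 0.05 and DESeq2 called 0. Of 12 copper genes 1 rose and 2 fell (16.7%), and of 26 zinc and metal transport genes 1 rose and 2 fell (7.69%). The ferritin FER1 was at -0.21 (SE 0.10, adjusted p = 0.178). OPT3, which loads iron and copper into the phloem, rose from 14.9, 12.9 and 13.8 CPM to 63.7, 59.4 and 51.6 CPM (2.07, SE 0.19, adjusted p = 1.8e-05). The main iron importer IRT1 read 77.9, 34.0 and 45 CPM with nanoP and 54.8, 55.0 and 17.2 CPM with nanoP+Th, with overlap, and did not pass (-0.30, SE 0.48, adjusted p = 0.708). IREG2, which moves metals into the vacuole, fell by 1.09 (SE 0.20, adjusted p = 0.00223). The copper reductase FRO5 fell from 230.6, 190.3 and 243.1 CPM to 58.7, 72.9 and 25.2 CPM (-2.08, SE 0.28, adjusted p = 0.000203). HMA2, a zinc and cadmium pump of the root stele, fell from 59.1, 71.3 and 71.0 CPM to 32.7, 32.4 and 21.3 CPM (-1.22, SE 0.19, adjusted p = 0.00065). In FRO5 and HMA2 every treated library was lower than every untreated one.

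Several nutrient transporters fell. SULTR1;1, a high-affinity sulfate importer, fell from 64.3, 54.1 and 73.3 CPM to 9.84, 16.4 and 5.6 CPM (-2.59, SE 0.28, adjusted p = 4.83e-05). The amino acid exporter family member UMAMIT17 fell from 221.7, 226.5 and 246.6 CPM to 44.3, 27.0 and 24.4 CPM (-2.86, SE 0.27, adjusted p = 2.24e-05). NRT2.1, the main high-affinity nitrate importer, fell from 540.3, 669.2 and 791.1 CPM to 329.5, 162.2 and 93.3 CPM (-1.77, SE 0.38, adjusted p = 0.00609), or by 2.38 without nanoP+Th replicate 1. NRT2.5, which serves nitrogen-starved plants, fell by 3.04 (SE 0.57, adjusted p = 0.00244) and NRT1.5, which loads nitrate into the xylem, by 1.34 (SE 0.18, adjusted p = 0.000229). The stelar potassium channel SKOR fell from 46.0, 54.6 and 51.7 CPM to 22.4, 8.07 and 10.2 CPM (-1.90, SE 0.29, adjusted p = 0.000611) and the potassium importer HAK5 by 1.17 (SE 0.21, adjusted p = 0.0016). The groups did not overlap for these genes, nor for 34.9% of all genes tested, and this was a condition for naming the largest changes. As lists, nitrogen genes had 2 that rose and 7 that fell of 31 tested (median 0.03), sulfur genes 3 and 3 of 22 (median -0.28), and potassium genes 1 and 3 of 6. NIA2, a nitrate reductase, rose from 324.0, 418.6 and 459.1 CPM to 1063.2, 1488.7 and 1002.1 CPM (1.56, SE 0.16, adjusted p = 3.24e-05).

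Cell wall, hormone and cell cycle lists were also counted, beside 9.22% that rose and 7.18% that fell over all genes tested. Of the xyloglucan-modifying XTH family 8 of 23 rose and 0 fell (median 0.60, or 0.58 with 1 member without nanoP reads set to its bound), led by XTH18 (1.69, SE 0.37), and of the expansin A family 4 of 15 rose, among them EXPA1 (1.48, SE 0.25). Abscisic acid and dehydration genes rose in 6 of 17 tested members, among them the dehydrin ERD10 (1.11, SE 0.15). Cell division genes rose in 5 of 19 (median 0.36) and DNA damage genes in 3 of 10 (median 0.57). These rises were fewer in some other fits, while DESeq2 gave 6 and 3. In the fit of all 66 libraries 4.19% of all genes rose. There 4 of 25 XTH, 1 of 16 expansin, 3 of 19 abscisic acid and 1 of 19 cell division genes rose. So did 1 of 11 DNA damage, 2 of 16 calcium and 4 of 61 WRKY genes. Without nanoP replicate 3 the counts that rose were 5 for XTH, 2 for expansins, 2 for cell division and 4 for WRKY, and without nanoP replicate 2 they were 5 for XTH, 2 for expansins, 2 for calcium and 5 for WRKY. Without nanoP+Th replicate 3 they were 2 for expansins, 3 for cell division and 2 for calcium, and without nanoP replicate 1 they were 3 for cell division and 2 for calcium. The calcium pump ACA13 rose from 3.12, 2.43 and 2.42 CPM to 33.0, 21.1 and 21.7 CPM (3.24, SE 0.34, adjusted p = 3.56e-05), which was the largest rise among 4 of 16 calcium genes. ACS7, an ethylene precursor synthase, rose by 2.85 (SE 0.32), while ethylene genes as a list had 3 that rose and 3 that fell of 13 (1 fell without nanoP replicate 2 and 0 without nanoP replicate 3). Jasmonate (2 rose, 3 fell of 21), defence (2 and 1 of 16), WRKY (9 and 5 of 59), indole glucosinolate (1 and 1 of 10), root triterpene (1 and 2 of 7) and root hair genes (2 and 0 of 18) showed no common direction.

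Thorium acted differently in N8508 without phosphate. The pair -P+Th and -P, which shares no library with the nanoP pair, gave calls for 47.2% of 19908 genes, 4627 that rose (23.2%) and 4766 that fell (23.9%). Of the genes that rose with nanoP 702 also rose on -P (38.3% of the former, 15.2% of the latter) and 521 fell there (28.4%). Of those that fell with nanoP 681 also fell (47.6% and 14.3%). The correlation of log2 fold changes across genes was 0.19, where genes are not independent replicates. The test of the difference between both thorium effects called 5741 genes (28.8%), 3406 with a higher effect under nanoP (17.1%) and 2335 with a lower one (11.7%). Of phosphate starvation genes 32 of 35 fell on -P with thorium (median -1.59), and 34 of 35 had a higher effect with nanoP (median difference 2.73). PECP1 fell by 3.24 on -P (SE 0.34), and the difference was 6.15 (SE 0.48, adjusted p = 3.69e-07). For IPS1 the effects were 1.57 and -2.89 (difference 4.46, SE 0.37, adjusted p = 5.65e-07). Suberin genes went the same way, with 14 of 16 falling on -P and 15 with a higher effect under nanoP, and 13 of 15 hypoxia genes had a higher effect under nanoP. The levels compared were not alike at the outset, since IPS1 averaged 1289.5 CPM on -P and 204.8 CPM with nanoP.

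Detoxification and sulfur genes showed the opposite difference. On -P 27 of 36 detoxification genes rose (median 1.46), and 12 had a lower effect with nanoP while 2 had a higher one. UGT73B4 rose by 5.07 on -P (SE 0.28) and by 2.76 with nanoP (difference -2.31, SE 0.46, adjusted p = 0.00145), whereas the effects on GSTU24 were 2.59 and 2.32 and their difference did not pass (-0.28, SE 0.41, adjusted p = 0.658). Sulfur limitation and assimilation genes rose in 17 of 22 on -P (median 1.81), against 3 with nanoP, and 13 had a lower effect with nanoP. ALMT1 rose by 10.47 on -P (SE 0.37), with a difference of -6.91 (SE 1.75, adjusted p = 0.00778, or 0.065 without nanoP replicate 1). Root triterpene genes, which rose in 5 of 7 on -P (median 3.15), had a lower effect with nanoP in 7 of 7. Heat shock genes rose under both conditions, in 11 of 18 on -P, and 8 of 18 had a higher effect with nanoP (median difference 2.25). For HSP101 that difference was 2.39 (adjusted p = 0.00112) and for HSP70 it did not pass (0.61, adjusted p = 0.316).

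**Figure D4:**
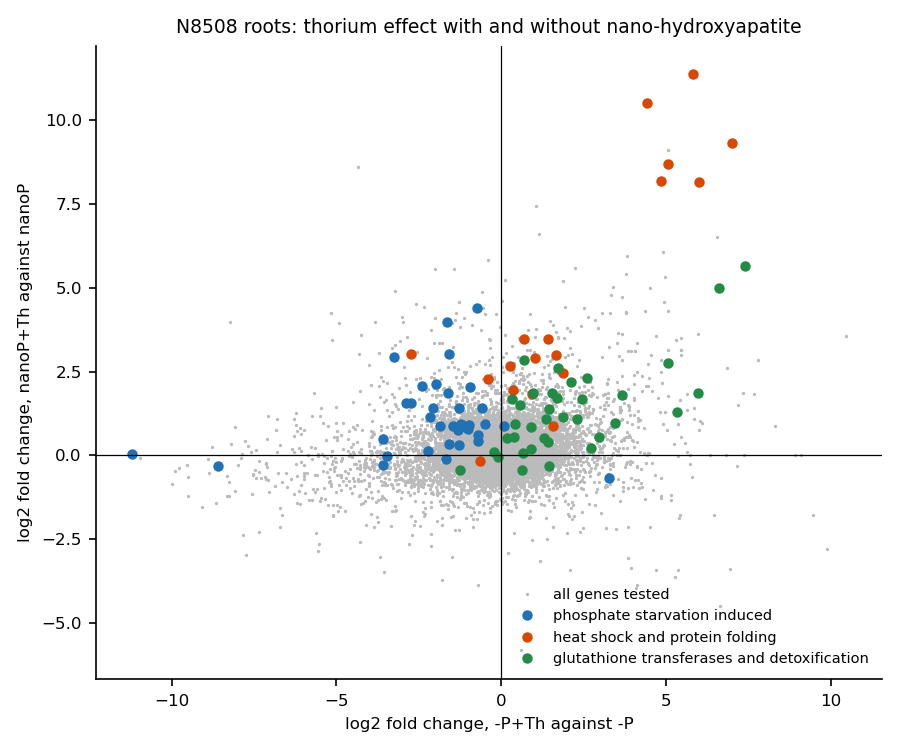
Log2 fold change with thorium in N8508 roots with nano-hydroxyapatite (vertical axis) against that without phosphate (horizontal axis) for the 19908 genes tested (grey points) and 3 gene lists (coloured). Phosphate starvation genes (blue) gather at upper left, with medians of 0.88 and -1.59, and heat shock (orange) and detoxification genes (green) mostly at upper right.

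Against untreated control plants, nanoP+Th roots differed in 1600 genes (8.04%), 696 higher (3.5%) and 904 lower (4.54%), a comparison that shares the nanoP+Th libraries with the main one. It was added after the data had been seen. Phosphate starvation genes were higher in 1 and lower in 15 of 35 (median -0.57), so that PHT1;4 stood at -1.05 (SE 0.15, adjusted p = 0.000747) and IPS1 did not pass (-0.61, SE 0.25, adjusted p = 0.15). Suberin genes were lower in 11 of 16 (median -0.83), among them FAR5 (-1.33, SE 0.09, adjusted p = 2.71e-06). Heat shock genes were higher in 3 and lower in 1 of 18, and HSP101 did not pass (0.93, adjusted p = 0.0795). Detoxification genes were higher in 0 and lower in 8 of 36. The count over all genes was 899 without mock replicate 1. The phosphate-free medium alone, -P against mock, changed 1909 genes (9.59%), 1140 higher (5.73%) and 769 lower (3.86%). It raised 20 of 35 phosphate starvation genes (median 0.63) and lowered 11 of 18 heat shock genes (median -1.70). That count was 1031 without mock replicate 1.

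The same thorium comparison was tested in the other genotypes in a fit of all 66 libraries. In that fit 6.21% of 20839 genes passed in N8508, with 874 that rose (4.19%) and 420 that fell (2.02%). In Col-0 0.513% passed, with 83 that rose (0.398%) and 24 that fell (0.115%). In N8507 13.4% passed, with 1131 that rose (5.43%) and 1662 that fell (7.98%), and in N9416 8.11%, with 657 that rose (3.15%) and 1034 that fell (4.96%). Of the genes that rose in N8508 27 rose in Col-0 (3.09% of the N8508 list and 32.5% of the Col-0 list), 90 in N8507 (10.3% and 7.96%) and 114 in N9416 (13.0% of the N8508 list, against 657 genes in the N9416 list). Of the same genes 1 fell in Col-0, 162 fell in N8507 (18.5% of the 874) and 88 fell in N9416. Correlations of log2 fold changes across genes were 0.108, 0.0962 and 0.0614 in that order. Tests of the difference of effects called 263 genes against Col-0 (1.26%), of which 170 had the higher effect in N8508 (0.816%) and 93 the lower (0.446%). Against N8507 they called 1450 genes (6.96%), 1094 higher (5.25%) and 356 lower (1.71%). Against N9416 they called 1206 genes (5.79%), 850 higher (4.08%) and 356 lower (1.71%). The count against Col-0 was 158 without N8508 nanoP replicate 2, 157 without nanoP replicate 3 and 169 without nanoP+Th replicate 2. Of 3 libraries with short effective length, only N8507 nanoP replicate 3 is in a compared group. The others, Col-0 -P+Th replicate 1 and N8507 -P+Th replicate 3, enter only through the shared fit. Without all 3 the counts were 734 against Col-0, 1512 against N8507 and 2485 against N9416. N8508 and N9416 carry one run of library numbers and Col-0 and N8507 another, so in the comparisons with Col-0 and N8507 the genotype and the run of numbers cannot be told apart.

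Some heat shock genes had a higher effect in N8508 than in each of the other genotypes. The effect was higher in N8508 than in Col-0 for 8 of 18, than in N8507 for 6 and than in N9416 for 11, and lower for 0 in each case. In N9416 itself 6 of the 18 fell and 1 rose (4.96% and 3.15% of all genes). Some members could not be decided, since the SEs against Col-0 were 48063.16 for HSP21, 32643.99 for HSP23.6 and 32424.07 for ATHSP22.0. The median log2 fold change of the list was 3.01 in N8508, -0.03 in Col-0, 0.60 in N8507 and -0.11 in N9416. HSFA2 differed by 4.28 from Col-0 (adjusted p = 0.000124), by 4.25 from N8507 (adjusted p = 4.77e-06) and by 5.92 from N9416 (adjusted p = 6.9e-09). The differences of HSP101 were 2.67 (adjusted p = 0.00214), 3.01 (adjusted p = 4.01e-05) and 4.37 (adjusted p = 7.43e-08). In Col-0 HSP101 itself stood at -0.02, and in N9416 it fell by 1.72 (adjusted p = 0.000852). In N8507 6 of the 18 members rose too, 5 of them small heat shock proteins. HSP17.6A rose there by 4.78 (SE 1.43, adjusted p = 0.0192) and HSP17.4 by 4.29 (SE 1.24, adjusted p = 0.0152). Neither differed from N8508 past the threshold (3.43, SE 2.99, adjusted p = 0.559, and 3.90, SE 2.49, adjusted p = 0.401), with wide SEs. HSP17.6II, ATHSP22.0 and HSP23.6 also rose in N8507. The SEs of their differences from N8508 were 14815.16, 6496.73 and 8.59, so that test could not decide whether the lines differed.

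Detoxification genes had a higher effect in N8508 than in Col-0 for 5 of 37, than in N8507 for 15 and than in N9416 for 13, and a lower one for 0. GSTU24 differed by 2.32 (SE 0.59, adjusted p = 0.0279), 4.04 (SE 0.63, adjusted p = 6.58e-06) and 2.79 (SE 0.60, adjusted p = 0.00167) in that order. Phosphate starvation genes had a higher effect in N8508 than in Col-0 for 3 of 35, where their median was 0.46, and than in N8507 for 16 and in N9416 for 14, where the medians were -0.20 and -0.11. PHT1;4 did not differ past the threshold from Col-0 (0.33, SE 0.31, adjusted p = 0.844) and differed by 1.36 from N8507 (SE 0.30, adjusted p = 0.00153) and by 1.23 from N9416 (SE 0.31, adjusted p = 0.00988). Suberin genes set N8508 apart mainly from N8507, in 14 of 16, where the list's own median was -1.95. CYP86A1 differed from N8507 by 3.70 (SE 0.25, adjusted p = 3.29e-16) and from Col-0 by 0.81 (SE 0.24, adjusted p = 0.0893). Hypoxia genes had the higher median in N9416 (1.82, against 1.19 in N8508), with 1 higher and 3 lower of 15 in N8508.

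Among genes that fell in N8508, several moved the other way elsewhere. HMA2 fell by 1.22 in N8508 and rose by 3.00 in Col-0, from a mean of 0.971 CPM to 7.9 CPM (difference -4.22, SE 0.41, adjusted p = 1.27e-09). SULTR1;1 had a lower effect than in Col-0 (-2.96, SE 0.64, adjusted p = 0.00656), N8507 (-3.23, SE 0.64, adjusted p = 0.000352) and N9416 (-4.18, SE 0.66, adjusted p = 1.57e-05), and in N9416 it rose by 1.59 from a mean of 8.67 CPM to 26.0 CPM. FRO5 had a lower effect than in Col-0 (-3.17, SE 0.58, adjusted p = 0.00143). CHX17, a cation exchanger, fell by 1.56 in N8508, from a mean of 87.2 CPM to 29.7 CPM, and rose by 1.78 in Col-0, from 49.2 CPM to 169.2 CPM (difference -3.34, SE 0.37, adjusted p = 6.01e-08).

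**Figure D5:**
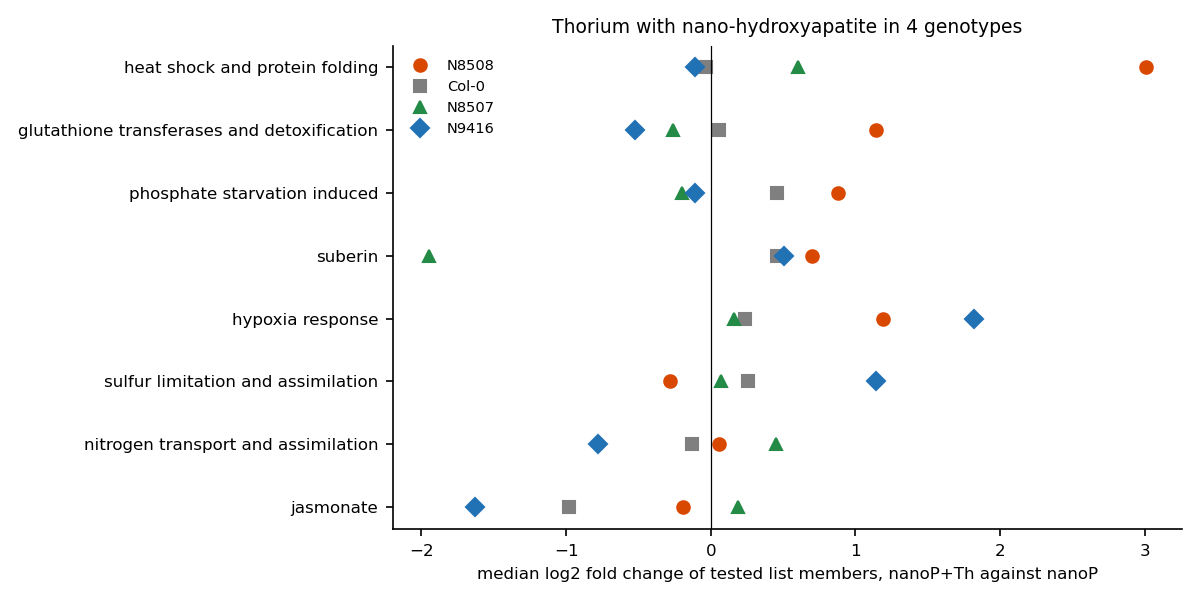
Median log2 fold change with thorium under nano-hydroxyapatite (horizontal axis) of the tested members of gene lists (rows) in 4 genotypes, from the fit of all 66 libraries; each symbol is 1 genotype and no error is drawn. N8508 lies at 3.01 for heat shock genes while the other lines lie between -0.11 and 0.60, and N8507 lies at -1.95 for suberin genes.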

How the data were processed

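Per the labels' protocols, NEBNext Ultra II Directional libraries were made from root RNA isolated by the Spectrum kit of Sigma-Aldrich. Trimmomatic and Salmon 1.3.0 with the TAIR10 build are named in the submitters' processing notes. Each deposited file lists, per transcript model, an estimated count of reads, a TPM value and an effective length; the TPM values were not used, and the deposited effective lengths served only to compare libraries. The models are coding sequences. Estimated counts were summed per locus and rounded to whole numbers. Loci were named from RefSeq TAIR10.1, which held 26645 of 27313 (97.6%).

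Differences were tested with edgeR 4.0.16 (R 4.3.3) quasi-likelihood tests after TMM scaling and filterByExpr, on the 15 N8508 libraries for comparisons within the line and on all 66 for those between genotypes. P-values were adjusted by Benjamini-Hochberg over all genes, with a threshold of 0.05, and the SE of a log2 fold change is its size over the square root of F. Fold changes are on the log2 scale, and levels are CPM of assigned reads. The script was tested on simulated data. Assigned reads per library were 11.3 M to 12.78 M in the 6 libraries compared, and counting intervals (95%) and floors cover counting error only.

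Genes were named as up to 4 members per list past the threshold with the largest change and a mean of at least 5 CPM, the 8 largest changes in each direction without overlap, and 8 phosphate, metal and malate genes always; others were chosen after their values were seen. Members and lists were chosen with earlier results of these data known. Alternatives were DESeq2 1.42.0, median-of-ratios scaling, no filter on low counts, other sets of libraries and leaving out each library in turn.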

Additional observations from a re-analysis of the deposited data

Results flagged for a closer look

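The effect of thorium differed between conditions or genotypes by a test of the difference itself for 5741 genes between nanoP and -P within N8508, for 263 genes between N8508 and Col-0, for 1450 between N8508 and N8507 and for 1206 between N8508 and N9416. The genes with the highest and lowest differences and a mean of at least 5 CPM in a group follow, on the log2 scale.

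Between nanoP and -P, the highest differences were those of CHS (12.97), the phosphate transporter PHT1;3 (11.23, uncertain because it shares reads with close copies), NRT2.6 (10.86) and CYP76G1 (9.39). The lowest were CYP722A1 (-8.10), MRD1 (-8.00), AER (-7.49) and ALMT1 (-6.91). For AER, a reductase of reactive carbonyls, the effects were -0.32 with nanoP and 7.16 on -P. With nanoP, PHT1;3 (0.04), NRT2.6 (-0.09), CYP76G1 (-0.39), CYP722A1 (-3.41) and AER did not pass. On -P the effects were -11.2 for PHT1;3, -10.95 for NRT2.6, -9.77 for CYP76G1 and 4.69 for CYP722A1. Leaving out 1 library ended the call for MRD1 in 7 of 12 cases (-3.89 without -P+Th replicate 1, adjusted p = 1.0), for CYP722A1 without nanoP replicate 2 (adjusted p = 0.0972) and for ALMT1 without nanoP replicate 1 (adjusted p = 0.065).

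Against Col-0, HSP17.6II (14.05), HSP17.6A (8.97), HSP17.4 (8.16) and CCA1 (5.70) had the higher effect in N8508. PLL3 (-4.46), HMA2 (-4.22), GRP9 (-4.07) and CHX17 (-3.34) had the lower one. In N8508 itself PLL3 (0.21) and GRP9 (0.42) did not pass. In Col-0 their means rose from 0.0923 to 2.65 CPM and from 1.77 to 40.6 CPM. Their N8508 means with nanoP were 26.5 and 829.7 CPM, so the starting levels were far apart. The call for HSP17.6II ended in 6 of 12 single-library omissions, with adjusted p from 0.0517 to 0.373, and that for HSP17.6A ended without Col-0 nanoP replicate 3 (adjusted p = 0.0947). The call for PLL3 ended in 8 of 12 omissions (-3.35 without Col-0 nanoP+Th replicate 3, adjusted p = 0.267), and that for GRP9 without the same library (-2.93, adjusted p = 0.0868).

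Against N8507, PAP25 (7.95), TH8 (7.39), OCT1 (5.75) and CCA1 (5.23) were higher and CLE6 (-6.61), BT2 (-5.01), SULTR3;5 (-4.75) and FLA13 (-3.99) lower. None of the lower genes passed in N8508 itself, where CLE6 was at -1.69, BT2 at -0.86, SULTR3;5 at 0.11 and FLA13 at 0.28. In N8507 they rose by 4.92, 4.15, 4.86 and 4.27 in that order. The value of PAP25 was 4.38 without N8507 nanoP replicate 3 (adjusted p = 1.0), and its call ended in 6 of 12 omissions. TH8 did not pass without N8507 nanoP replicate 1 (adjusted p = 0.0597) or 3 (adjusted p = 0.0874), and FLA13 did not pass in 5 of 12 omissions (adjusted p from 0.0501 to 0.108). For OCT1, an organic cation transporter, the effects were 1.39 in N8508 and -4.37 in N8507.

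Against N9416, HSP17.6II (8.79), FLC (8.33), HSP17.6A (8.21) and HSP17.4 (8.06) were higher and MSRB5 (-4.60), SULTR1;1 (-4.18), MRD1 (-4.11) and SLAH1 (-3.61) lower. In N8508 itself MSRB5 did not pass (-0.78), and in N9416 it rose by 3.82. FLC, a repressor of flowering, was at 4.11 in N8508 (SE 1.15, adjusted p = 0.0212, edgeR) and -4.23 in N9416 (SE 1.35, adjusted p = 0.0415). The N9416 groups overlapped for FLC, at 0 to 6.43 CPM with nanoP and 0.0888 to 0.18 CPM with nanoP+Th. HSP17.6II did not pass without N8508 nanoP replicate 1 (adjusted p = 0.0513) or N9416 nanoP replicate 2 (adjusted p = 0.0675). Where 1 of the groups had no read, which held for CHS, NRT2.6, CYP76G1, CYP722A1, MRD1 on -P, HSP17.6II and PAP25, the fitted value depends on the prior count and is no bound.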

How the results depend on the processing

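The 3265 genes called became 1294 with all 66 libraries in the fit (874 rose and 420 fell, 67.5% rising against 56.2%) and 2047 with only the 2 groups compared. With all 66 libraries the difference of thorium effects between nanoP and -P gave 3689 genes and thorium on -P 6849. In that fit -P against mock gave 951, nanoP+Th against mock 717 and the detoxification list 13. With only the groups compared, -P against mock gave 1083, nanoP+Th against mock 794, the difference from N8507 875 and that from N9416 2528. DESeq2 gave 397 genes against Col-0. Without the 3 libraries of short effective length the counts were 734 against Col-0, 1512 against N8507 and 2485 against N9416. Leaving out 1 library at a time gave 1737 to 3379 genes for thorium with nanoP and 8016 to 8974 for thorium on -P. Their difference gave 4722 to 6152, -P against mock 1031 to 1875 and nanoP+Th against mock 899 to 1837. The ranges were 157 to 234 against Col-0, 1031 to 1795 against N8507 and 898 to 1100 against N9416. List counts that rose were 23 to 26 for phosphate starvation, 15 to 19 for detoxification, 16 to 17 for heat shock, 9 to 11 for hypoxia and 7 to 9 for suberin. Direction reversed only for genes that had not passed: IRT1 ranged from -0.55 to 0.09 over the omissions (0.06 without nanoP+Th replicate 3, 0.09 without nanoP replicate 1), and PHT1;3 from -0.09 to 0.3 (-0.09 without nanoP+Th replicate 2, nanoP replicate 1 or nanoP replicate 2). Of the other values of single genes under alternatives, 2306 kept direction and side of the threshold and 252 kept direction but no longer passed. The cause was not tested. No paired analysis was possible because the labels number libraries through the series and give no replicate number shared between groups.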

Other observations

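Clock genes were looked at after CCA1 was seen among the genes that rose. CCA1, a morning factor of the circadian clock, read 1.07, 1.05 and 0.235 CPM with nanoP and 19.4, 61.5 and 8.09 CPM with nanoP+Th (log2 fold change 5.22, SE 0.77, adjusted p = 0.000406, edgeR), or 4.10 without nanoP+Th replicate 2. Its partner LHY rose from 0.914, 0.728 and 0.547 CPM to 4.13, 8.76 and 4.0 CPM (2.93, SE 0.35, adjusted p = 7.95e-05). PRR9 rose from 0.762, 1.7 and 1.95 CPM to 10.9, 34.0 and 6.67 CPM (3.54, SE 0.58, adjusted p = 0.000925), or by 2.56 without nanoP+Th replicate 2. In all 3 genes nanoP+Th replicate 2 was the highest library. The evening genes TOC1 (-0.35), PRR3 (-0.45) and PCL1 (-0.32) fell, but none of these 3 passed without nanoP replicate 3 (adjusted p = 0.0621, 0.0678 and 0.1) or in the fit of all 66 libraries, and 7 others of the 13 clock genes did not pass. The sources used here do not give the hour of harvest, so its part in these values was not tested.

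Loci whose RefSeq product is a small heat shock protein or an HSP20-like chaperone were also counted after values were seen. Of 40 such loci 37 were tested, 19 rose and 0 fell, with a median of 0.74. Over all genes tested 9.22% rose and 7.18% fell. The set shares members with the heat shock list, among them HSP17.6II and HSP21, so it is no separate result. HSP21 passed the filter on low counts only through nanoP+Th.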
